A study of Mus musculus with 20 samples.

Results

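Sox17 is an HMG-box transcription factor that marks primitive endoderm, the extraembryonic layer that lines the early embryo next to the pluripotent epiblast. HMG-box proteins bind a short AT-rich element in the minor groove and often act beside a partner, and in pluripotent cells the POU protein Oct4 (Pou5f1) pairs with Sox2 on composite Sox-Oct elements. Sox17 can pair with Oct4 as well, and retinoic acid (RA) turns F9 embryonal carcinoma cells into primitive endoderm-like cells in which Sox17 is active. The chromatin around the Sox17 gene is described here through the ChIP-seq peaks of Sox17, Sox2 and Oct4. All peaks were taken whose midpoint lay on chromosome 1 from 4380000 to 4620000 in mouse build mm9, a window of 240 kb with Sox17 on the minus strand at about 4.481 to 4.487 Mb. The window held 97 of the 765133 peaks in the 18 deposited lists. The nearest peaks outside it were an Oct4 peak of the Sox2 line (replicate A) at 4337636 to 4338276 with a score of 161, and a Sox2KE peak (replicate B) at 4643679 to 4644277 with a score of 57.3. By midpoint, the first and last peaks inside were at 4387032 to 4387268, with a score of 83.5, and at 4601975 to 4602467, with a score of 68.9.

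The F9 line gave 3 libraries, each without a replicate. Sox17 and Oct4 were immunoprecipitated from F9 cells after 1 µM RA (F9+RA), with the Sox17 and the Oct4 antibody, and Oct4 from untreated F9 cells. The other 15 libraries came from undifferentiated KH2 embryonic stem (ES) cells, a mouse line built for doxycycline-inducible transgenes, in which 1 µg/ml doxycycline induced a V5-tagged Sox protein in every library used here. There were 2 libraries each of Sox17EK, Sox17, Sox2KE and Sox2, and of Oct4 in the Sox17EK, Sox2KE and Sox2 lines 2 each, with 1 of Oct4 in the Sox17 line. Sox17EK carries a lysine in place of the glutamate of Sox17, and Sox2KE a glutamate in place of the lysine of Sox2. For Sox17EK, Sox2KE and Sox2 the V5 antibody is named. For Sox17 in ES cells both a Sox17 and a V5 antibody are named, and for Oct4 in ES cells both an Oct4 and a V5 antibody, so Oct4 and tagged Sox protein cannot be told apart there. Replicates A and B are not described as separate cultures, so p-values between lines measure only the spread between these libraries, which may be technical. Sox17 in untreated F9 cells was not analysed here.

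Each peak has a score from the authors' peak caller, which starts at 50 in every list and was read as 10 times the −log10 p-value, a scale that no label states. Lists held 5836 to 84196 peaks and their read depth is unknown, so the strength of a peak is given also as its rank in its own list (1 is the strongest) and as that rank in percent of the list. Chromosome 1 held 3.08% to 4.35% of the peaks in the 3 lists of the F9 line and 7.41% to 11.4% in the 15 lists of ES cells, so counts on this chromosome differ between the cell lines before any single locus is looked at. Overlapping peaks of the 18 lists were joined into 24 sites, of which 13 lay upstream of the gene or across its 5′ end, 1 within it and 10 downstream. In RefSeq's GRCm38 annotation the next protein-coding genes are Rp1 on the 3′ side and Mrpl15 on the 5′ side, with non-coding genes and pseudogenes in the gap between Sox17 and Mrpl15.

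**Figure D1:**
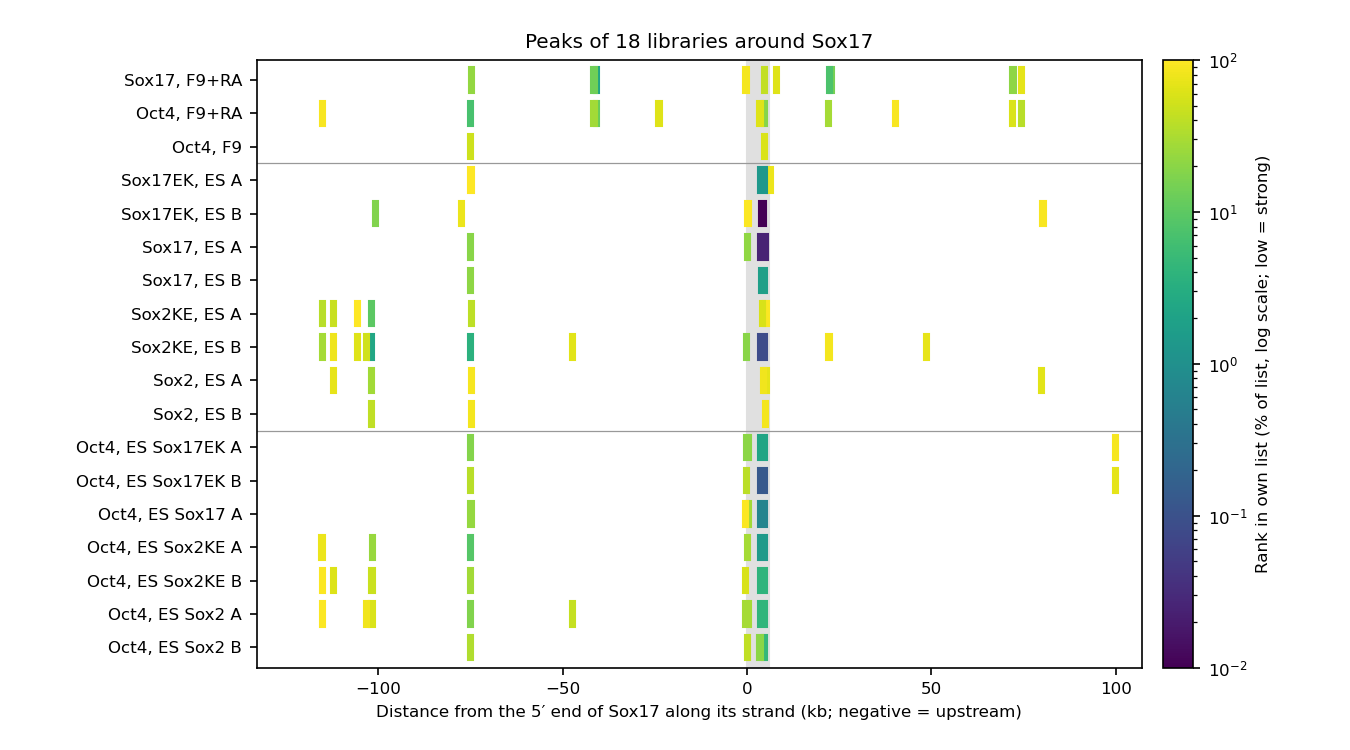
Peaks of the 18 libraries by distance from the 5′ end of Sox17 along its strand (kb), 1 row per library, coloured by rank in percent of the own list on a log scale. Narrow peaks are drawn wider than they are so that they can be seen, and the grey band is the gene. The gene has a peak in all 18 libraries, and the peaks about 41 kb upstream are in the F9+RA libraries alone.

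After RA the locus held more Oct4 peaks and a series of Sox17 peaks. The window held 10 Sox17 peaks and 11 Oct4 peaks in F9+RA cells, against 2 Oct4 peaks in untreated F9 cells. Of the 11 Oct4 peaks of F9+RA cells, 9 overlapped no Oct4 peak of F9 cells. The same held for 42.7% of all Oct4 peaks of F9+RA cells (37.6% on chromosome 1). Of the 9, 1 lay on the gene at 4483047 to 4483931 (score 74.7), beside the Oct4 peak of F9 cells at 4481697 to 4482936. None of the 2 Oct4 peaks of F9 cells lacked a partner in F9+RA cells, against 31.7% over the whole F9 list. The F9+RA list was the longer one, with 84196 against 64582 peaks. With both lists at their 39768 strongest peaks, 4 of 6 Oct4 peaks of F9+RA cells still had no partner in F9 cells. These are single libraries, so the counts compare libraries and carry no test of the treatment.

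The number of peaks was set against stretches of the same length along all chromosomes. In Sox17 F9+RA, 10.5% of the 10981 stretches had at least 10 peaks, and on chromosome 1, where the F9 lists are sparse, 0.731% of 821 stretches did. In Oct4 F9+RA, 25.8% of all stretches and 9.74% of those on chromosome 1 had at least 11 peaks. In Oct4 F9, 59.4% and 53.0% had at least 2. The 15 ES lists lay between 12.3% and 48.4% over all chromosomes and between 17.1% and 50.4% on chromosome 1. Sox17 of F9+RA cells was thus the list in which the window ranked highest for its chromosome.

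**Figure D2:**
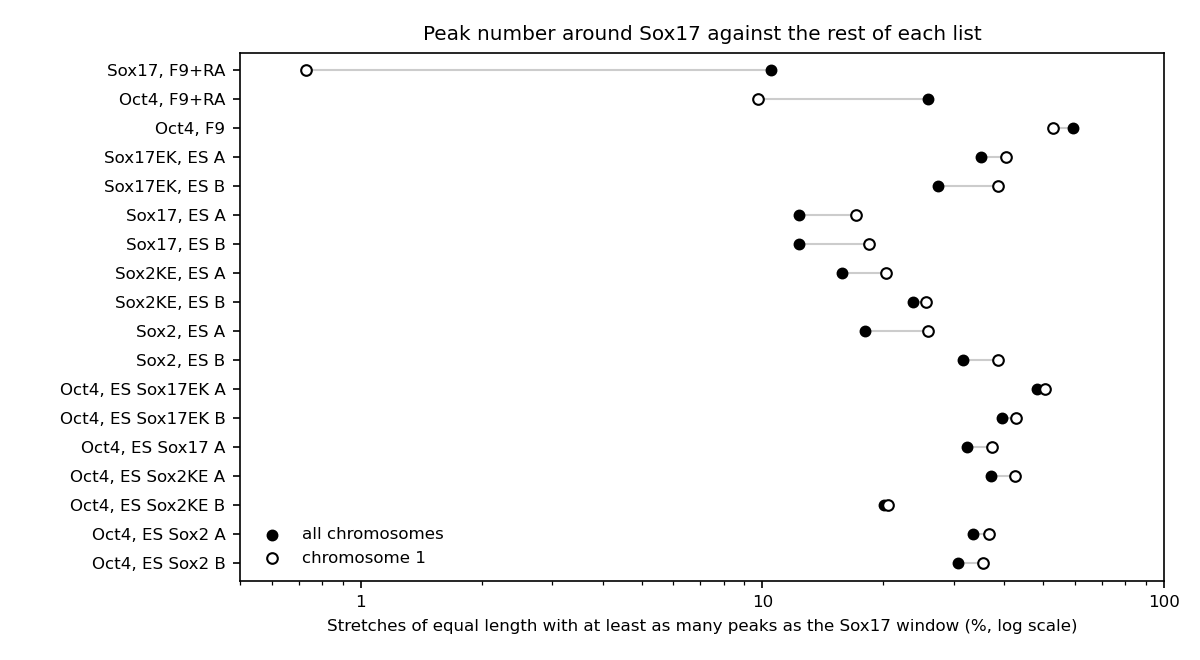
Share of 240 kb stretches that hold at least as many peaks as the Sox17 window in the same list (%, log scale), for all chromosomes (filled) and for chromosome 1 (open), 1 row per library. The share for Sox17 in F9+RA cells was 10.5% over all chromosomes and 0.731% on chromosome 1, against 53.0% on chromosome 1 for Oct4 in F9 cells.

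The strongest Sox17 peak of F9+RA cells in the window lay about 41 kb upstream of the gene, at 4527346 to 4528102. Its score was 328 and its rank 905 of 39768 (2.28%), or 34 of 1224 on chromosome 1 (2.78%). An Oct4 peak of F9+RA cells lay on it at 4527410 to 4528057, with a score of 347 and a rank in the top 11.8%, and the midpoints of both peaks were 9.5 bp apart. Directly beyond it, 41.5 kb upstream, came a second joint site. There Sox17 scored 137 (13.6%) and Oct4 171 (27.6%) in F9+RA cells, with midpoints 3 bp apart. Untreated F9 cells had no Oct4 peak at either site, and the 15 ES lists had none.

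Downstream of the gene the Sox17 peaks of F9+RA cells formed 2 further groups. The stronger began about 22 kb from the 5′ end, that is about 16 kb past the 3′ end. Sox17 scored 188 there at 4464505 to 4464845, a rank of 2948 (7.41%), and Oct4 scored 162 in F9+RA cells (29.2%). The ES lists had 1 peak at that place, in Sox2KE replicate B, with a score of 60.1 near the end of its list (86.2%). A neighbouring peak at 4463884 to 4464338 with a score of 132 (14.4%) was in Sox17 F9+RA alone. The weaker group lay 66.1 and 68.3 kb past the 3′ end. At the nearer of these sites Sox17 scored 108 (20.8%) and Oct4 79.2 (60.1%) in F9+RA cells. At the farther one Sox17 scored 58.7 (68.6%) and Oct4 127 (37.2%). Neither site had a peak in F9 or ES cells. The last Sox17 peak found in no other list lay 2.0 kb past the 3′ end at 4478875 to 4479219 and scored 60.9 (63.3%).

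Of the 10 Sox17 peaks, 7 overlapped an Oct4 peak of F9+RA cells and 2 an Oct4 peak of F9 cells. Over the whole Sox17 list these shares were 53.1% and 43.0%. Seen from Oct4, 7 of its 11 peaks in F9+RA cells carried Sox17, against 24.0% of its whole list. Of the 9 Oct4 peaks without a partner in F9 cells, 5 had Sox17 and 4 did not. The midpoints of the 7 joint pairs lay a median of 25.0 bp apart, against 110 bp over the 21117 Sox17 peaks with Oct4 in F9+RA cells. The 7 distances ran from 3 to 134 bp, and the difference of the medians was not tested. At 4 of the 10 Sox17 peaks Oct4 of F9+RA cells was present while Oct4 of F9 cells and all ES lists had none, and the whole list had 7.65% of such peaks (5.15% on chromosome 1). Raising the minimum score to 100 left 6 Sox17 and 6 Oct4 peaks in F9+RA cells and 1 Oct4 peak in F9 cells, with 4 of the Sox17 peaks on an Oct4 peak of F9+RA cells.

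**Figure D3:**
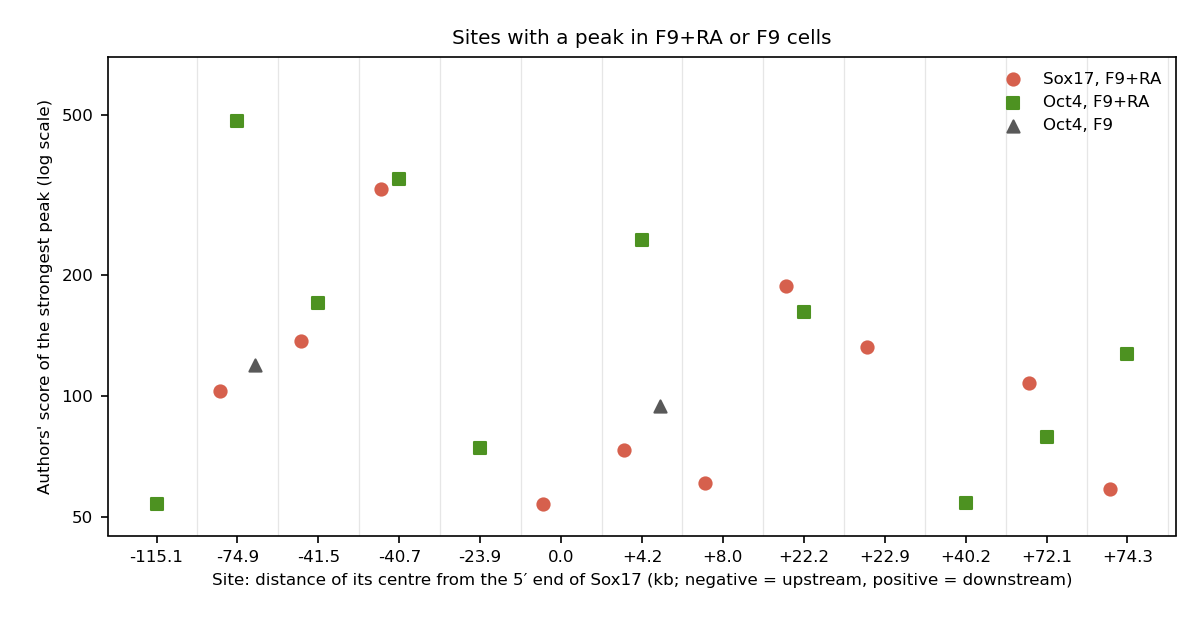
Authors' score (log scale) of the strongest peak of Sox17 in F9+RA, Oct4 in F9+RA and Oct4 in F9 cells at each of the 13 sites with a peak in the F9 line, ordered by distance from the 5′ end of Sox17 (kb). Oct4 of untreated F9 cells is present at 2 of the 13 sites, and at both its score (94.8 and 119) is below that of Oct4 in F9+RA cells (245 and 484).

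Both Oct4 sites of untreated F9 cells stood higher after RA. At 74.9 kb upstream Oct4 scored 484 after RA, a rank of 5850 (6.95%), and 119 in F9 cells, a rank of 32177 (49.8%). Within the gene Oct4 scored 245 after RA (18.6%) and 94.8 in F9 cells (60.1%). The difference in rank percent (F9+RA minus F9) was -42.9 points upstream and -41.4 points in the gene. Both sites had a lower percent, that is a stronger place in the list, in F9+RA cells, as did 60.7% of the 44083 Oct4 sites of both lists. A shift at least as large as the smaller of these was found at 7.72% of them (6.46% on chromosome 1).

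The gene itself was the only site with a peak in all 18 lists, and its strength ranged from the top to the weaker part of the lists. The site ran from 4481429 to 4484109, in the 3′ part of the gene as bounded here. In the Sox libraries of ES cells its rank was 384 and 2.5 for Sox17EK (scores 1103 and 3100) and 2.5 and 101 for Sox17 (3100 and 448). A rank of 2.5 is a tie among the strongest peaks of the list, which share the score of 3100. Sox2KE differed between its replicates, with a rank of 19220 in A (score 82.9, 58.0% of the list) and 58.5 in B (score 3100, 0.0816%). Sox2 ranked 23232.5 and 20138 (scores 65.7 and 58.4, 72.1% and 84.2%). Both Sox17 forms thus lay in the strongest 1.73% of their lists, with ranges that overlap each other. Sox2 lay in the weaker part of its lists in both replicates, and Sox2KE had 1 library on either side.

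Oct4 in ES cells also ranked high over the gene, whatever Sox protein was induced. It ranked 1543 and 59.5 with Sox17EK (scores 2377 and 3100) and 232 with Sox17 (1524). With Sox2KE it ranked 788 and 1312 (scores 1223 and 766), and with Sox2 2589 and 1522 (1589 and 508). In percent of the list these are 0.127% to 2.26% in the lines of the Sox17 forms and 1.44% to 4.63% in the lines of the Sox2 forms, ranges that overlap. The 3 lists of the F9 line were weaker at the gene. Sox17 scored 73.3 in F9+RA cells, a rank of 16950.5 (42.6%, or 47.9% on chromosome 1). The highest site thus differed between the list of endogenous Sox17 in F9+RA cells and the lists of induced Sox17 in ES cells. The Sox17 ES lists had their best peak on the gene and no peak at the site 41 kb upstream. Those ES cells also hold an induced Sox17 coding sequence, whose reads cannot be told apart from those of the gene.

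The gene site was covered by 1 wide peak in some lists and by 1 or 2 shorter peaks in others. In 11 of the 15 ES lists it was 1 peak of 1975 to 2616 bp, and peaks at least that wide made up between 0.00817% and 1.74% of those lists. These 11 peaks ended between 4483707 and 4484109. In 4 lists the site was split into 2 peaks. Oct4 of F9+RA cells had peaks of 1164 and 885 bp (scores 245 and 74.7), the second of which ended at 4483931, within the range of the wide peaks' ends. Oct4 of the Sox2 line replicate B had peaks of 1309 and 1053 bp (508 and 223), of which the second ended at 4484026, also within that range. Sox2KE replicate A had peaks of 1218 and 566 bp (82.9 and 52.9), and Sox2 replicate A of 489 and 693 bp (65.7 and 58.5), all ending short of it. The other 3 lists had 1 shorter peak, of 832 bp in Sox17 F9+RA, 1240 bp in Oct4 F9 and 624 bp in Sox2 replicate B. ES cells of the Sox17 and Sox17EK lines hold, beside the gene, an induced coding sequence of Sox17, and in peak lists reads of the gene and of that copy cannot be told apart. By the labels the Sox2KE and Sox2 lines express no Sox17 form, and the wide peak was there in Sox2KE replicate B and in the Oct4 lists of both lines except Oct4 Sox2 replicate B. What set the width of this peak was not tested.

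**Figure D4:**
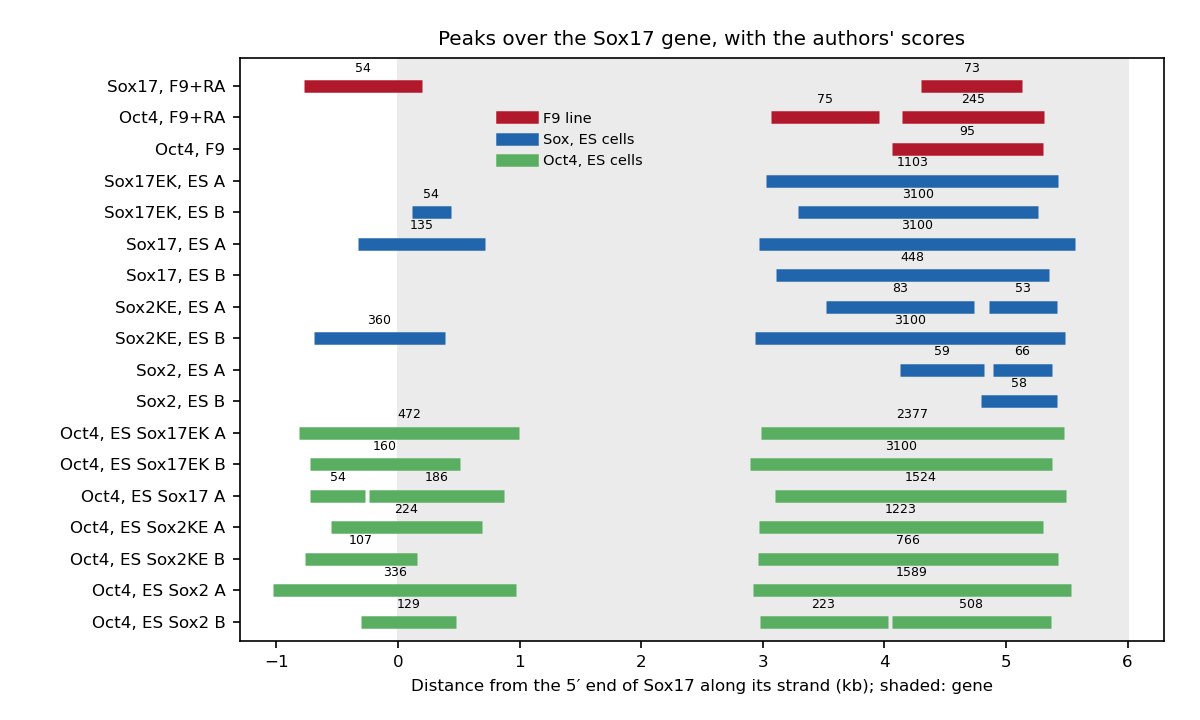
Extent of every peak over the Sox17 gene in the 18 libraries, by distance from its 5′ end along its strand (kb), with the authors' score above each peak and the gene shaded. Wide peaks of high score (448 to 3100) lie over the 3′ part in the Sox17EK, Sox17 and Sox2KE B libraries, and peaks of 52.9 to 245 in the F9 line, Sox2KE A and Sox2. The 7 Oct4 libraries of ES cells, of all lines, have peaks of 508 to 3100 there, with a second peak of 223 in the Sox2 line replicate B.

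The 5′ end of the gene had a separate site, from 4486003 to 4488027, found in 11 lists. All 7 Oct4 libraries of ES cells had it. Their scores were 472 and 160 with Sox17EK, 186 with Sox17, 224 and 107 with Sox2KE and 336 and 129 with Sox2, all within the strongest 57.4% of their lists. Among Sox libraries it was in Sox17EK B (53.8), Sox17 A (135) and Sox2KE B (360), that is in 1 replicate of each of 3 proteins, and in neither Sox2 library. In the F9 line it was in Sox17 F9+RA alone, near the lower limit of the list with a score of 54.0 (84.2%), and Oct4 had no peak there in F9+RA or F9 cells. Oct4 thus had a called peak at the start of the gene in all its ES lists and in neither of its F9-line lists.

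The site 74.9 kb upstream, from 4561316 to 4562563, had a peak in 17 of the 18 lists, with Sox17EK replicate B as the exception. It was in all 7 Oct4 libraries of ES cells. Oct4 scored 522 and 164 there with Sox17EK, 215 with Sox17, 546 and 251 with Sox2KE, and 531 and 153 with Sox2. The ranks were 8.77% to 37.6% of the lists, and the lines overlapped. Among Sox libraries the 4 of the glutamate forms scored above the 4 of the lysine forms, a difference not tested at this single site. Sox17 scored 142 and 118 (19.8% and 21.0% of the list), and Sox2KE 117 and 1003 (39.9% and 3.60%). Sox17EK had a score of 50.02 in A, at the end of its list, and no peak in B, and Sox2 scored 55.6 and 58.3 (87.4% and 84.3%). Sox17 of F9+RA cells scored 103 at this site (22.7%), close in rank to the Sox17 libraries of ES cells.

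A cluster of sites 101.8 to 115.1 kb upstream belonged mainly to the Sox2 forms in ES cells. At 4588179 to 4589405, Sox2KE scored 336 and 1202 (9.85% and 2.43% of the list) and Sox2 152 and 110 (28.3% and 42.1%). Sox2KE was higher than Sox2 in both replicates by rank and score. No Sox17EK or Sox17 library had a peak at this site. Sox17EK replicate B had a peak close beside it without overlap, at 4587659 to 4588019 (100.8 kb upstream). It scored 122 (17.5% of the list), a stronger rank in percent than that of either Sox2 library at the joint site. Oct4 had a peak there of 266 and 134 in the Sox2KE line and of 123 in the Sox2 line replicate A, and none in replicate B, the Sox17EK line, the Sox17 line, F9+RA cells or F9 cells. Of the 15 ES Sox sites in the window, this was the only one with all 4 libraries of the Sox2 forms and none of the Sox17 forms, a pattern of 3.47% of the 112784 ES Sox sites in the genome. The opposite pattern, with all libraries of the Sox17 forms and none of the Sox2 forms, was not met in the window and made up 0.0177% of all sites.

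Farther out, the site 112.1 kb upstream was in Sox2KE (102 and 68.8), Sox2 replicate A (65.8) and Oct4 of the Sox2KE line replicate B (96.5). The site 115.1 kb upstream was in both Sox2KE libraries (123 and 248) and in neither Sox2 library. Oct4 had peaks of 68.9 and 52.5 at that site in the Sox2KE line, of 56.5 in the Sox2 line replicate A and of 53.8 in F9+RA cells. The remaining 11 sites were in 1 list (6 sites) or 2 lists (5 sites) and scored between 50.78 and 195. The largest of them, 47.3 kb upstream, was in Oct4 of the Sox2 line replicate A and in Sox2KE replicate B.

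**Figure D5:**
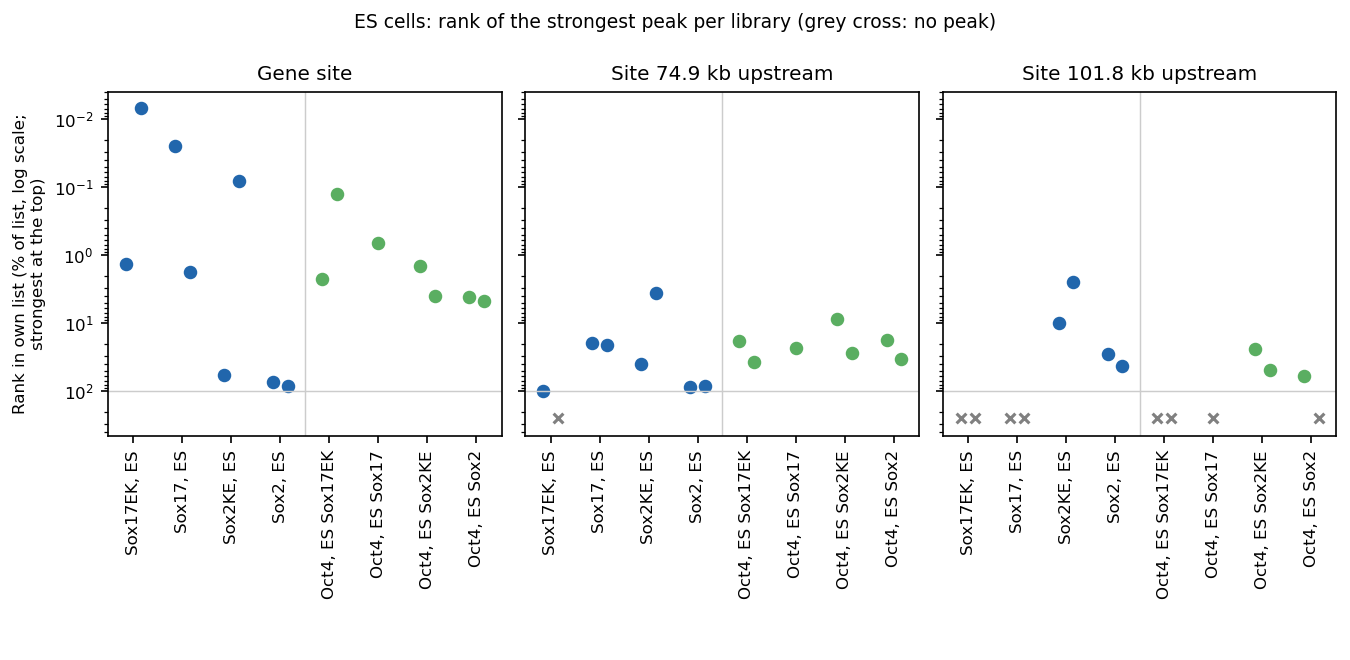
Rank of the strongest peak in percent of its own list (log scale, strongest at the top) for each ES library at the gene, at the site 74.9 kb upstream and at the site 101.8 kb upstream. A cross marks a library with no peak. The Sox17EK and Sox17 libraries are strong over the gene and have no peak at 101.8 kb, where Sox2KE and Sox2 have one in both replicates. In the Sox17EK and Sox17 lines, reads of the induced Sox17 copy cannot be told apart from those of the gene. A Sox17EK B peak beside that site, 100.8 kb upstream (17.5% of the list), is not drawn.

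Of the 10 Sox17 peaks of F9+RA cells, 3 overlapped a Sox17 peak of ES cells, at the gene, its 5′ end and 74.9 kb upstream. Over the whole list 15.9% of peaks did so, and 36.4% on chromosome 1, where the ES lists hold more peaks. A peak in any of the 15 ES lists lay on 4 of the 10, against 51.6% of the whole list and 65.8% on chromosome 1.

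Whether the residue exchanged between Sox2 and Sox17 went with the rank of the strongest peak or the peak density in the window was tested over libraries. No site was in all 4 glutamate Sox libraries (Sox17 and Sox2KE) and no lysine one (Sox17EK and Sox2), and none the other way round, against 0.111% and 0.932% of all ES Sox sites. In all 8 Sox libraries there was 1 site, the gene, a pattern of 1.33% of all sites. The strongest peak of the window ranked 2.5 and 101 in Sox17 and 3263 and 58.5 in Sox2KE. It ranked 384 and 2.5 in Sox17EK and 9104.5 and 10080 in Sox2. In every Sox17 and Sox17EK library this peak was on the gene. Reads of the induced Sox17 copy cannot be told apart there, so the rank test does not separate binding from reads of that copy. On the log10 scale the rank averaged 1.92 ± 1.28 in glutamate and 2.74 ± 1.69 in lysine libraries (SD, n = 4 each). The difference of -0.82 was not past the threshold of 0.05 (exact two-sided permutation p = 0.457, Benjamini-Hochberg adjusted p = 0.61 over the 4 tests made). The test pooled the Sox2 and Sox17 forms. Sox2KE minus Sox2 was -1.34, without overlap of the libraries, and Sox17 minus Sox17EK was -0.29, with overlap (2 libraries per protein, not tested by form). Peaks in the window per 10000 peaks of the list averaged 2.50 ± 0.839 in glutamate libraries and 1.38 ± 0.345 in lysine libraries (SD, n = 4 each). Sox17 had 2.91 and 3.43, Sox2KE 2.11 and 1.53, Sox17EK 1.05 and 1.36, and Sox2 1.86 and 1.25. The groups thus overlapped (exact two-sided permutation p = 0.0571, adjusted p = 0.229). By form the density difference was 0.27 for Sox2KE minus Sox2, with overlap, and 1.96 for Sox17 minus Sox17EK, without overlap. Behind these densities were 3 and 2 peaks in Sox17, 7 and 11 in Sox2KE, 3 and 5 in Sox17EK, and 6 and 3 in Sox2. The high Sox17 densities came from few peaks in the shortest lists, of 10301 and 5836 peaks. The smallest p that 4 against 4 libraries allow in this permutation test is 0.0286.

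In Oct4 libraries of ES cells the log10 rank of the strongest peak averaged 2.79 ± 0.387 in lines with a glutamate form (n = 3) and 2.89 ± 0.751 in lines with a lysine form (n = 4, SD), without a detectable difference (exact two-sided permutation p = 0.914, adjusted p = 0.914). The difference of -0.10 became 0.046 when ties took their lowest rank. Oct4 peaks per 10000 averaged 1.29 ± 0.479 in lines with a glutamate form (n = 3) and 0.942 ± 0.282 in lines with a lysine form (n = 4; exact two-sided permutation p = 0.343, adjusted p = 0.61). The smallest p that 3 against 4 libraries allow is 0.0571, so these comparisons could not pass 0.05.

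With peaks on the gene left out, a choice made after the data were seen, the strongest Sox peak ranked 2036.5 and 1226 in Sox17 and 3263 and 1743 in Sox2KE. It ranked 21957 and 6424 in Sox17EK and 9104.5 and 10080 in Sox2. All 4 glutamate libraries were above all 4 lysine libraries, by -0.74 on the log10 scale (exact two-sided permutation p = 0.0286, the smallest possible, and 0.152 adjusted over the 8 tests added). The peaks behind these ranks lay at different sites, 74.9 kb upstream for Sox17, 101.8 kb upstream for Sox2KE and Sox2, and 0.2 kb past the 3′ end (A) and 100.8 kb upstream (B) for Sox17EK. A rank cannot exceed the length of its list, 10301 and 5836 peaks for Sox17. With ranks in percent of the list the libraries overlapped and the difference was -0.55 (exact two-sided permutation p = 0.0857).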

How the data were processed

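ChIP-seq peak lists of 18 of the 20 samples were analysed, and the mock samples, 2 in number, were not used here. Each deposited list has 5 columns and no header: chromosome, start, end, peak name and a number. The names carry the MACS prefix, and the deposited number, called the score, was read as 10 times −log10 p because it starts at 50 in each list. No label states this scale. Start and end are deposited as positions, taken to count from 0 and printed from 1. The submitters' processing notes name mm9. For the aligner, the caller's settings and the control, nothing is stated in the sources used here.

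Read depth was unknown, so no counting interval is given. Ties received their average rank. Peaks were matched by an overlap of at least 1 bp. Groups came from the sample titles. The 4 tests were exact two-sided permutation tests over libraries with Benjamini-Hochberg adjustment, tested on simulated data. Sites with a Sox17 F9+RA peak, sites in at least 3 lists and the site nearest the 5′ end of Sox17 were named with their values, and the others were summarised. The window, the sites and the tests were chosen with earlier results of these data known. Alternatives were midpoints within 200 bp, a score of at least 100, lists of equal length, chromosome 1 alone, 50 kb either side of Sox17, a replicate block, ties at the lowest rank and leaving out each library. Python 3.11.15, NumPy 2.4.6, pandas 2.3.3, SciPy 1.17.1 and matplotlib 3.10.9 were used.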

Additional observations from a re-analysis of the deposited data

Results flagged for a closer look

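Oct4 in the Sox17EK line replicate B stood apart from the other lysine-line Oct4 libraries. Its strongest peak in the window, over the gene, ranked 59.5, a log10 rank of 1.77, against ranks of 1543, 2589 and 1522 in Oct4 Sox17EK A, Sox2 A and Sox2 B. Of 12 groups of 4 libraries checked for a value far from the others, these 2 entries, which are the same peak, were marked, and chance marks about 1 in 20 groups. Its list had 46709 peaks, within the range of the other Oct4 lists of ES cells (32848 to 68294), and its score of 3100 is shared by many top peaks.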

How the results depend on the processing

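Of the 4 tests over libraries, none passed 0.05 with another ranking of ties, score minimum, list length, chromosome 1 alone, narrower window, replicate block or with 1 library left out, and 1 did with peaks on the gene left out. Several of these runs could not pass 0.05. The smallest possible permutation p for Sox lists was 0.0571 with 1 library left out and 0.0556 with the replicate block. For Oct4 lists it was 0.0571 to 0.133 over the settings, so none of them could pass. Leaving out 1 library moved the glutamate minus lysine difference of log10 rank in Oct4 lists (-0.10) between -0.468 (without Oct4 Sox17EK B) and 0.118 (without Oct4 Sox17 A), with both signs. That difference was 0.046 with ties at the lowest rank and 0.006 with ranks in percent, a setting added after the data were seen. For Sox lists the log10 rank difference lay between -1.595 (without Sox17EK B) and -0.308 (without Sox17 A) and the density difference between 0.805 and 1.436. Without peaks on the gene the Sox rank difference was -0.74. The Sox density difference was then 0.464 in place of 1.115 (exact two-sided permutation p = 0.0571, 0.152 adjusted over the 8 tests added). With the letters A and B as a replicate block only the permutations were restricted, so the differences were the same by construction. The permutation p was then 0.5 for Sox rank (-0.815) and 0.0556, the smallest possible, for Sox density (1.115). It was 0.778 for Oct4 rank (-0.096) and 0.222 for Oct4 density (0.345). The correlation of A minus B between the 4 Sox proteins over 1502 shared sites was -0.20 to 0.04. This measure cannot show a shift common to all sites, so it does not settle whether the letters mark shared cultures. At a score of at least 100 there were 15 sites in place of 24, 5 Oct4 F9+RA peaks without F9 partner in place of 9, and 4, 1 and 1 Sox17 F9+RA peaks with Oct4 F9+RA, Oct4 F9 and Sox17 ES in place of 7, 2 and 3. Within 50 kb of Sox17 there were 12 sites, and 4 and 1 Sox17 peaks with Oct4 F9+RA and F9. Midpoints within 200 bp left 1 Sox17 peak with Sox17 ES. At 39768 peaks a list, 4 Oct4 F9+RA peaks lacked an F9 partner. Depth is unknown and F9 libraries have no replicate, so a missing peak means that none was called.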
